A study of Mus musculus with 4 samples.

Results

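The epithelial junction genes examined here were 9 genes chosen by name, all present among the 53647 genes of the count tables: Epcam, Tjp1, Ocln, Cldn3, Cldn4, Cldn7, Dsp, Jup and F11r. They were measured by RNA sequencing in 4T1, a mouse mammary carcinoma cell line labelled as breast cancer cells of genotype WT. In the uniSTING group (2 libraries) the cells had received mRNA for uniSTING, a mimic of the innate immune adaptor STING. In the Mock group (2 libraries) they had received mRNA for the fluorescent protein EGFP, so that both groups carried a delivered mRNA. As carriers the labels give both a transfection reagent and SS-OP lipid nanoparticles, with neither assigned to a library and no dose or time. They number the libraries as preparations 1 and 2 and do not say that these came from separate cultures, so p-values measure only the spread between libraries, which may be technical.

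Epithelial cells are sealed to each other by tight junctions and held together by desmosomes. In a tight junction, claudins, occludin (Ocln) and the immunoglobulin-like adhesion molecule JAM-A (F11r) cross the membrane, and the scaffold ZO-1 (Tjp1) ties their tails to actin. In a desmosome, plakoglobin (Jup) and desmoplakin (Dsp) link the desmosomal cadherins to keratin filaments. Epcam is a homophilic adhesion molecule of epithelia and carcinomas that binds claudin-7. In breast carcinoma these genes are read as signs of an epithelial state.

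All 9 genes passed the filter on low counts, with 771 to 10394 counts in a library. Total counts were 18843543 and 25071840 in the uniSTING libraries and 17502694 and 22039546 in the Mock libraries. The genes of 5 membrane proteins had higher transcript levels in uniSTING and those of the 3 cytoplasmic plaque proteins had lower ones. Cldn4, F11r and Cldn3 rose 1.42-fold, 1.38-fold and 1.35-fold, Cldn7 rose 1.12-fold and Epcam 1.11-fold. Tjp1, Dsp and Jup were 1.58-fold, 1.41-fold and 1.14-fold lower in uniSTING. Ocln was 1.10-fold higher without passing the test. Thus 8 of 9 genes, 5 higher and 3 lower, were past the threshold of 0.05 on p-values that were adjusted over 12972 genes (edgeR's quasi-likelihood F test, Benjamini-Hochberg method). Of all tested genes 50.2% passed, 24.9% higher and 25.4% lower. None of the 9 changes reached 2-fold. As fitted, with no account of gene length, their median absolute log2 fold change was 0.44, against 0.23 over all tested genes. With the length trend described below removed, Cldn3 at 0.22 had the middle absolute value of the 9, and no value over all genes was computed on that scale.

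Fold changes in these libraries followed gene length, and the 9 genes differ widely in it. The 5 genes that rose have 1.259 to 2.663 kb of exon, Ocln has 4.222 kb, and the 3 that fell have 6.436 to 9.659 kb. Once the trend of each library with exon length was removed, 6 of the 9 genes passed, 3 higher (Cldn3, Cldn4 and F11r) and 3 lower (Tjp1, Dsp and Jup), where 45.6% of all tested genes passed (23.4% higher and 22.2% lower). With trends of length and GC content removed, 4 were higher (Epcam again among them) and 2 lower, Cldn7 and Jup being lost, where 44% of all genes passed (22.4% higher and 21.6% lower). Each gene is therefore given below as fitted, with the length trend removed and with length and GC trends removed.

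The labelled cell type was checked on its markers. Keratin genes of simple epithelium were abundant, with Krt8 at 1316 ± 4.73 CPM (counts scaled to the TMM-adjusted size of the library) in uniSTING and 1271 ± 15.4 CPM in Mock (SD, n = 2 libraries each). The 9 epithelial markers summed to 5001 and 5019 CPM in uniSTING and 4815 and 4886 CPM in Mock. Of the 7 tested, 5 were higher and 1, Cdh1, lower (all tested genes 24.9% and 25.4%). With the length trend removed 2 were higher and 3 lower (all tested genes 23.4% and 22.2%). Krt8 was among those that changed sides (0.05 as fitted, adjusted p = 0.0124, and -0.10, adjusted p = 1.94e-04). The largest change was that of Krt19 (132 ± 3.56 CPM in uniSTING and 66.0 ± 1.46 CPM in Mock). The basal keratin gene Krt14 had 204 ± 1.47 CPM in uniSTING and 179 ± 1.11 CPM in Mock. Krt5 (0 and 0 counts in uniSTING, 1 and 0 in Mock) and Muc1 (10 and 11 in uniSTING, 4 and 0 in Mock) were nearly absent. Markers of other cell types were low, and several followed the preparation number in both groups. The 10 leukocyte markers summed to 37.1 and 20.3 CPM in uniSTING replicates 1 and 2 and to 24.5 and 15.2 CPM in Mock replicates 1 and 2. The leukocyte antigen gene Ptprc had 19 and 0 counts in uniSTING and 8 and 0 in Mock. The 8 fibroblast markers summed to 14.6 and 9.88 CPM in uniSTING and 11.5 and 8.05 CPM in Mock, and 6 endothelial markers to 1.76 and 0.562 CPM in uniSTING and 2.10 and 0.272 CPM in Mock. Of the leukocyte markers 4 were tested and Cd68, a lysosomal protein gene of macrophages, passed, with 10.7 and 10.4 CPM in uniSTING and 8.34 and 6.43 CPM in Mock (adjusted p = 0.00650, and 0.0759 without Mock replicate 2). The lysozyme gene Lyz2 had 290 and 0 counts in uniSTING and 155 and 0 in Mock, and Cd14 had 8.54 and 8.68 CPM in uniSTING and 5.56 and 7.83 CPM in Mock without passing. Itgam, a defining marker of myeloid cells, was among 2 markers with no count in any library. Of the fibroblast markers 3 were tested and Pdgfra passed, with 8.91 and 8.56 CPM in uniSTING and 7.15 and 6.38 CPM in Mock (adjusted p = 0.0243, and 0.163 without Mock replicate 2). The part of these markers in the results below was not tested. Between the replicate 2 libraries alone, a comparison chosen after seeing the data, each of the 9 junction genes changed in the same direction as between the replicate 1 libraries. That outcome was fixed by the groups not overlapping in CPM for any of the 9, so it is no test of the markers. The same holds in CPM for at least the 75.1% of all tested genes in which the groups did not overlap. Cd68, Cd14 and Pdgfra had counts in the replicate 2 libraries too.

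**Figure D1:**
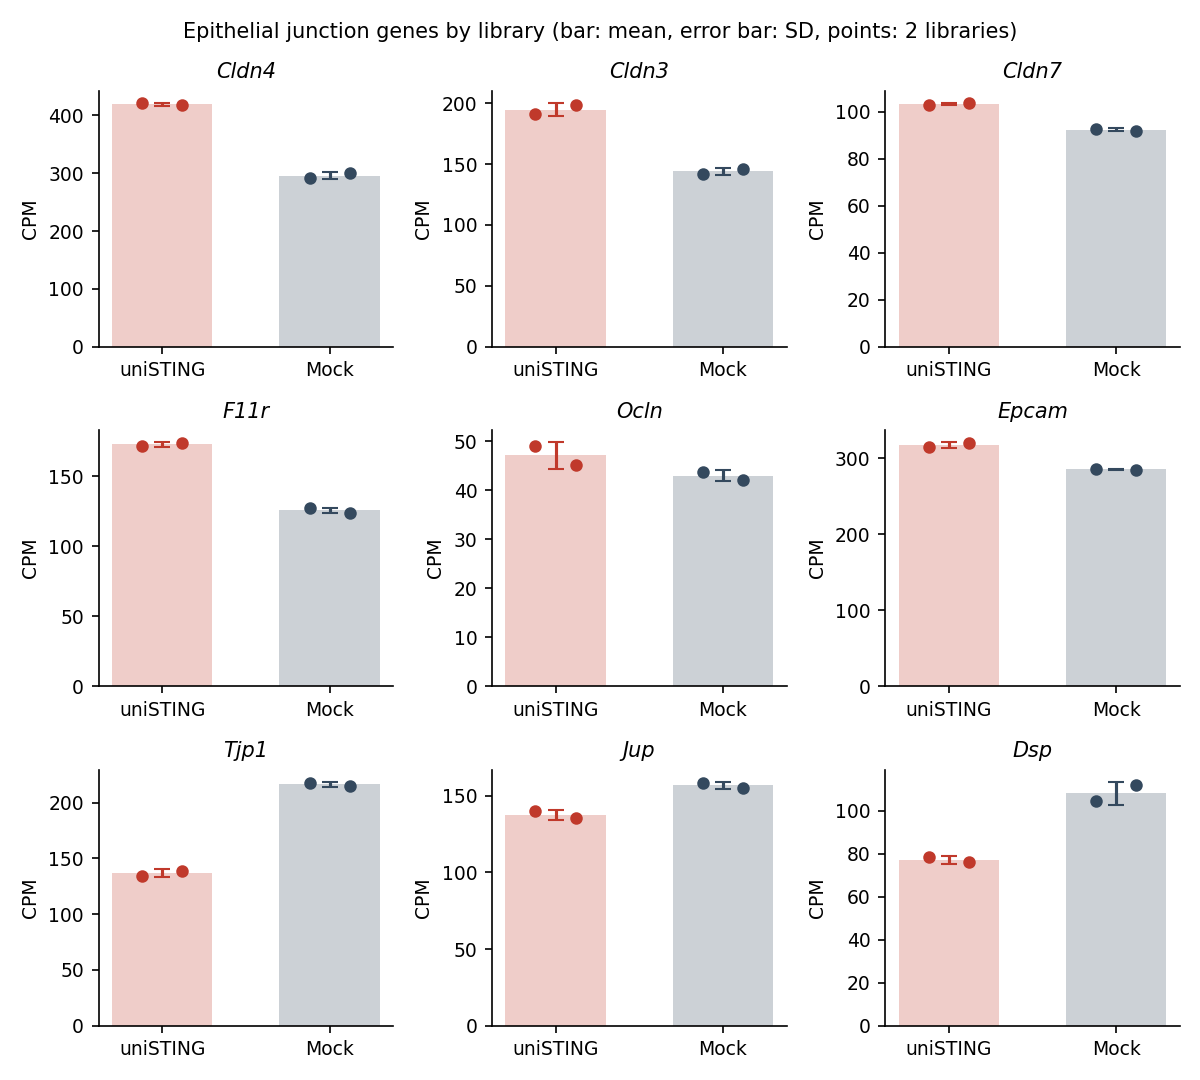
Level of each junction gene in CPM (vertical axes, from 0) in the uniSTING and Mock libraries, with points for the 2 libraries, bars for their mean and error bars for the SD. The uniSTING libraries lie above the Mock libraries for the 6 genes of membrane proteins and below them for Tjp1, Jup and Dsp.

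Upstream sequences are shown for the 2 neighbouring claudin genes that rose together and for Tjp1, the gene with the largest fall. They are the 250 bases before the RefSeq start site (GRCm38.p6, 5′ to 3′ on the gene's strand), and capitals mark the AP-1 motif TGANTCA, the E-box CAGGTG and the GC box GGGCGG on either strand. The windows are chr5:134946935-134947184 on the minus strand for Cldn4, chr5:134985964-134986213 on the plus strand for Cldn3 and chr7:65371245-65371494 on the minus strand for Tjp1.
Cldn4: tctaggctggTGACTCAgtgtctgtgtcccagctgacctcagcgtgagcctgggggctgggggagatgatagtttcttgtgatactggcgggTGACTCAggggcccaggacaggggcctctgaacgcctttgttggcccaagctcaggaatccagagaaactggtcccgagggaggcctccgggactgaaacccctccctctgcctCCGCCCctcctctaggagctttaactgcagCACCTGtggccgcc
Cldn3: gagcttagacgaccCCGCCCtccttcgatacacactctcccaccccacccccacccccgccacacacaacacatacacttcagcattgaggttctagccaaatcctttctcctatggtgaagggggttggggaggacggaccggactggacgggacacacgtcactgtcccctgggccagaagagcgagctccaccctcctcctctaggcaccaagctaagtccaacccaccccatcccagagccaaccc
Tjp1: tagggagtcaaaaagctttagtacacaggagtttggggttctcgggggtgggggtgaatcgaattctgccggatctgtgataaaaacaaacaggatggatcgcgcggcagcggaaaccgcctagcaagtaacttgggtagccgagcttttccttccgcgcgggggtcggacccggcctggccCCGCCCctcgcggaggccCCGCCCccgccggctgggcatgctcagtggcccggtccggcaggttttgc
The table held 11 upstream windows for the 9 genes. The Cldn4 window holds the AP-1 motif with its first base at -240 and -158 from the start site, an E-box at -14 and a GC box. Cldn3 and Tjp1 hold GC boxes and neither of the other motifs in these windows. F11r, which also rose, has an AP-1 motif at -109 and an E-box at -122. Over the 11 windows, the AP-1 motif was found in 2, the E-box, a sequence bound by the repressors SNAIL and ZEB, in 5, and the GC box in 10. Of 32851 windows of all genes, 6.75% held the AP-1 motif, 17.2% the E-box and 32.7% the GC box. The Grainyhead-like motif ACCGGTT was in none of the 11 (0.831% of all windows), and so was the TATA box TATAAA (12.4% of all). These are matches of letters and not binding sites. Cldn7 and Ocln are each counted more than once among the 11 windows, and the windows of Ocln overlap. The 11 windows hold 51.2% to 72.4% GC, and the shares over all genes were neither matched for GC content nor limited to expressed genes. The counts therefore do not show enrichment.

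Among the claudins, the strand-forming proteins of tight junctions, Cldn4 was the most abundant of the 9 genes. It had 421 and 418 CPM in uniSTING and 291 and 301 CPM in Mock. Both uniSTING libraries stood above both Mock libraries. The libraries of the groups did not overlap, in one direction or the other, for any of the 9 genes, nor for 75.1% of all tested genes. The log2 fold change was 0.50 (SE 0.022, adjusted p = 1.67e-08), and 0.34 with the length trend removed (adjusted p = 8.31e-07). With length and GC trends removed it was 0.40 (adjusted p = 8.97e-08).

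Cldn3 lies 39.3 kb from Cldn4 on chromosome 5 in the opposite orientation (Cldn4 at 134973973 to 134975788 and Cldn3 at 135015068 to 135016326, GRCm39), each annotated as 1 exon. Both claudins are receptors of the Clostridium perfringens enterotoxin. Cldn3 had 191 and 199 CPM in uniSTING and 142 and 146 CPM in Mock. Its log2 fold change of 0.44 (SE 0.030, adjusted p = 5.73e-07) was close to that of its neighbour. With 1.259 kb of exon it is the shortest of the 9, and the length trend took its value to 0.22 (adjusted p = 2.79e-04), while removal of length and GC trends left 0.41. Per kilobase of exon, the ratio of Cldn4 to Cldn3 levels was 1.53 and 1.46 in uniSTING and 1.43 and 1.43 in Mock.

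Cldn7 encodes a claudin found along the lateral membrane as well as in tight junctions. It had 103 and 104 CPM in uniSTING and 92.7 and 91.9 CPM in Mock. The difference was small next to that of Cldn4 but larger than the spread between libraries, at 0.16 on the log2 scale (SE 0.031, adjusted p = 0.00117). With the length trend removed it was 0.01 (adjusted p = 0.819, 95% interval -0.06 to 0.08), and with length and GC trends removed 0.08 (adjusted p = 0.0697).

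Epcam had 315 and 320.2 CPM in uniSTING and 286 and 285 CPM in Mock, 0.15 higher on the log2 scale (SE 0.021, adjusted p = 1.23e-04). Its fold change equalled the length trend to within its error, since 0.02 was left once the trend was removed (adjusted p = 0.379), though with length and GC trends removed 0.09 was left (adjusted p = 0.00580). Epcam and Cldn7 kept nearly 1 ratio in every library. This follows from their near-equal fold changes, both close to the length trend (0.13 at the length of Epcam and 0.15 at that of Cldn7). Per kilobase, the ratio of Epcam to Cldn7 levels was 2.72 and 2.74 in uniSTING and 2.74 and 2.75 in Mock. Of 6 ratios computed, for chosen pairs of these genes and not for all pairs, it had the smallest difference of log2 fold changes (-0.01).

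F11r, the gene of JAM-A, which places polarity proteins at the forming junction, had 172 and 174 CPM in uniSTING and 127 and 124 CPM in Mock. Its log2 fold change was 0.46 (SE 0.027, adjusted p = 1.98e-07). With the length trend removed it was 0.37 (adjusted p = 2.64e-06), the highest of the 9 genes on that scale. With length and GC trends removed it was 0.39 (adjusted p = 1.05e-06), below Cldn3 (0.41) and Cldn4 (0.40). F11r and Cldn7 had overlapping levels per kilobase in Mock (47.7 and 46.6 for F11r, 47.6 and 47.2 for Cldn7). In uniSTING they were apart, at 64.4 and 65.3 for F11r and 52.8 and 53.2 for Cldn7.

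Ocln, the gene of occludin, had 49.0 and 45.2 CPM in uniSTING and 43.7 and 42.1 CPM in Mock. The gap between the 2 uniSTING libraries was nearly as large as that between the group means. The log2 fold change was 0.13 (SE 0.063, adjusted p = 0.106) with a 95% interval of -0.01 to 0.27, so that a rise of up to 1.21-fold lies within it. Without uniSTING replicate 2 the value was 0.19 and passed (adjusted p = 0.0339). Ocln lies near the median exon length of the tested genes (4.15 kb), and the length trend left its value at 0.13. With length and GC trends removed it was 0.06 (adjusted p = 0.437).

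**Figure D2:**
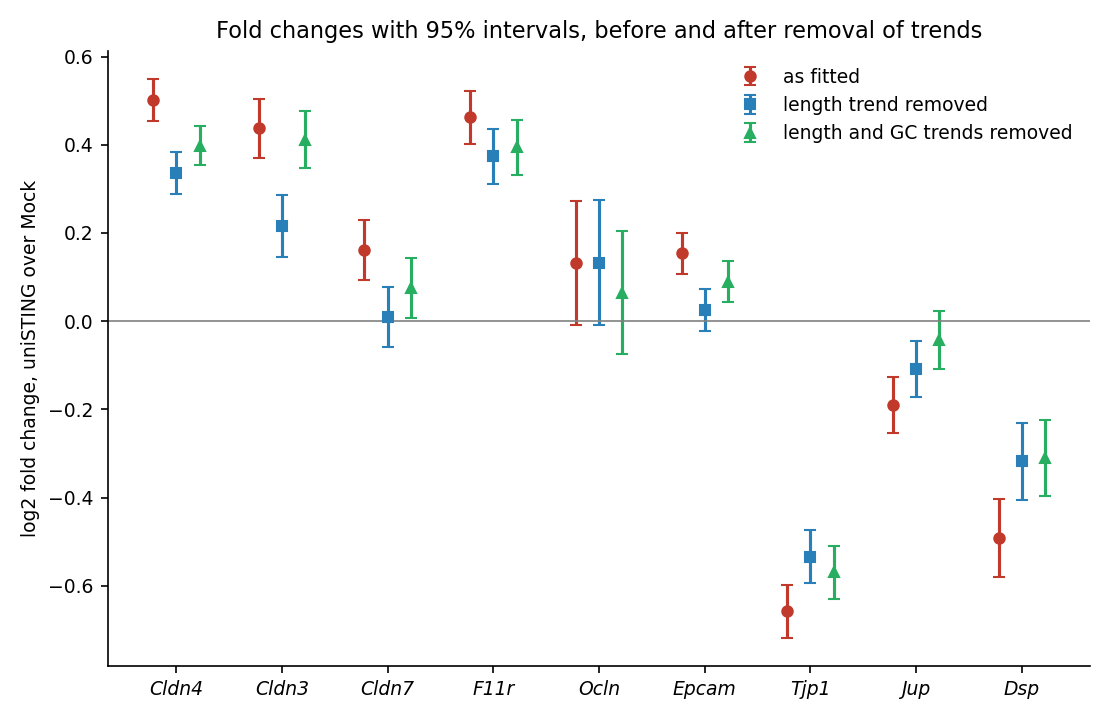
Log2 fold change of uniSTING over Mock (vertical axis) for each junction gene, as fitted and after removal of the length trend or of length and GC trends, with 95% intervals. Cldn4, Cldn3, F11r, Tjp1 and Dsp keep intervals on 1 side of 0 in all 3 versions, while those of Cldn7 and Epcam include 0 with the length trend removed.

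Transcript levels of the plaque protein genes among the 9 went the other way. Tjp1, whose product ZO-1 carries PDZ domains that bind claudin tails and is needed to assemble claudin strands, had 135 and 139 CPM in uniSTING and 218 and 214 CPM in Mock. This was the largest change of the 9, at -0.66 on the log2 scale (SE 0.027, adjusted p = 1.12e-08), at percentile 4.94 of the log2 fold changes of all tested genes. Its exon length of 7.811 kb put the trend at -0.12 there, and -0.53 remained with the trend removed (adjusted p = 1.66e-07). With length and GC trends removed, -0.57 remained (adjusted p = 4.72e-08). Tjp1 spans 64945913 to 65177529 on chromosome 7 (GRCm39).

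Dsp had 78.6 and 76.0 CPM in uniSTING and 105 and 112 CPM in Mock. At 9.659 kb it is the longest of the 9, in the decile of longest tested genes, where the median log2 fold change was -0.24 and 58.1% were lower. Its log2 fold change of -0.49 (SE 0.040, adjusted p = 2.19e-06) became -0.32 without the length trend (adjusted p = 9.78e-05). Without length and GC trends it was -0.31 (adjusted p = 8.54e-05). The antisense gene Gm10129 shares 499 exon bases with Dsp and had 0 and 0 counts in uniSTING and 0 and 4 in Mock. Counting was without a strand option, so reads of the pair cannot be told apart there.

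Jup encodes plakoglobin, a relative of beta-catenin that serves both desmosomes and adherens junctions. It had 140.0 and 135 CPM in uniSTING and 159 and 155 CPM in Mock. The fall was the smallest of the 3, at -0.19 on the log2 scale (SE 0.029, adjusted p = 2.57e-04). It was -0.11 with the length trend removed (adjusted p = 0.0113) and -0.04, no longer past the test, with length and GC trends removed (adjusted p = 0.269).

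**Figure D3:**
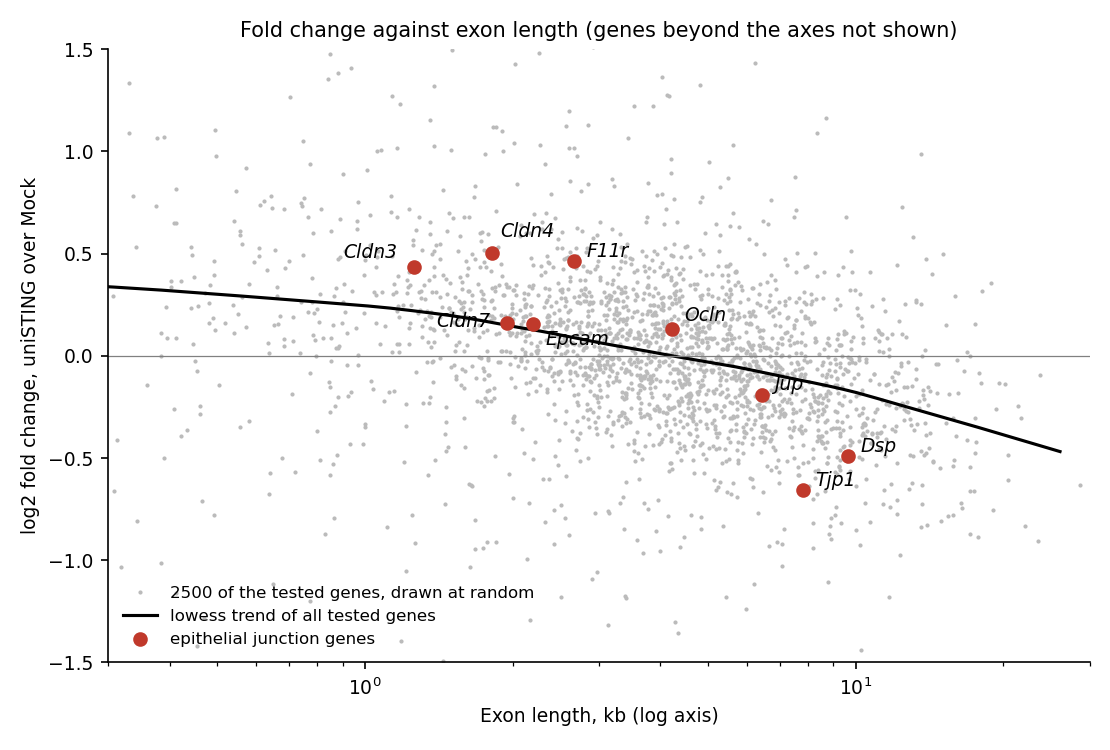
Log2 fold change of uniSTING over Mock against exon length in kb (log axis) for the 9 junction genes, a random sample of the tested genes and their lowess trend. Cldn7 and Epcam sit on the trend, Cldn3, Cldn4, F11r and Ocln above it, and Tjp1, Dsp and Jup below it.

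The length trend itself ran through all tested genes. The decile that holds Cldn3, Cldn4 and Cldn7 (1.21 to 2.02 kb) had 0.19 as its median log2 fold change, with 40.4% of genes higher and 6.09% lower. In the decile of Epcam and F11r the median was 0.12, in that of Ocln -0.02, in that of Jup -0.07 and in that of Tjp1 -0.14. The source of the trend was not tested. In bulk RNA, fewer cells that express a gene and less RNA per cell cannot be told apart either.

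Ratios of Tjp1 to 3 genes of membrane proteins follow from the fold changes above and are given as a description. Per kilobase of exon, the ratio of Tjp1 to Cldn4 levels was 0.0742 and 0.0774 in uniSTING and 0.174 and 0.166 in Mock. Tjp1 to F11r was 0.267 and 0.273 in uniSTING and 0.585 and 0.589 in Mock, and Tjp1 to Ocln was 1.48 and 1.66 in uniSTING and 2.69 and 2.75 in Mock. With 2 libraries against 2, an exact permutation test of such a ratio cannot give a p below 0.333, so none is given.

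By CPM per kilobase the 9 genes ranged over more than an order of magnitude. In uniSTING the order was Cldn4 (231 CPM per kilobase), Cldn3 (155), Epcam (145), F11r (64.9), Cldn7 (53.0), Jup (21.4), Tjp1 (17.5), Ocln (11.2) and Dsp (8.0), and no neighbours overlapped between libraries. In Mock it was Cldn4 (163), Epcam (130.1), Cldn3 (114), Cldn7 (47.4), F11r (47.2), Tjp1 (27.7), Jup (24.4), Dsp (11.2) and Ocln (10.2). 3 pairs of genes stood in the opposite order in the 2 groups: Cldn3 and Epcam, Jup and Tjp1, and Ocln and Dsp. F11r and Cldn7 overlapped in Mock and had no resolved order there. Averaged over the libraries, Cldn3 stood at percentile 97.2 of the tested genes by this level, Cldn4 and Epcam above it, and Dsp at percentile 61.3. Exon lengths are the union of all annotated exons, so levels of genes with many isoforms, such as Tjp1, are understated.

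**Figure D4:**
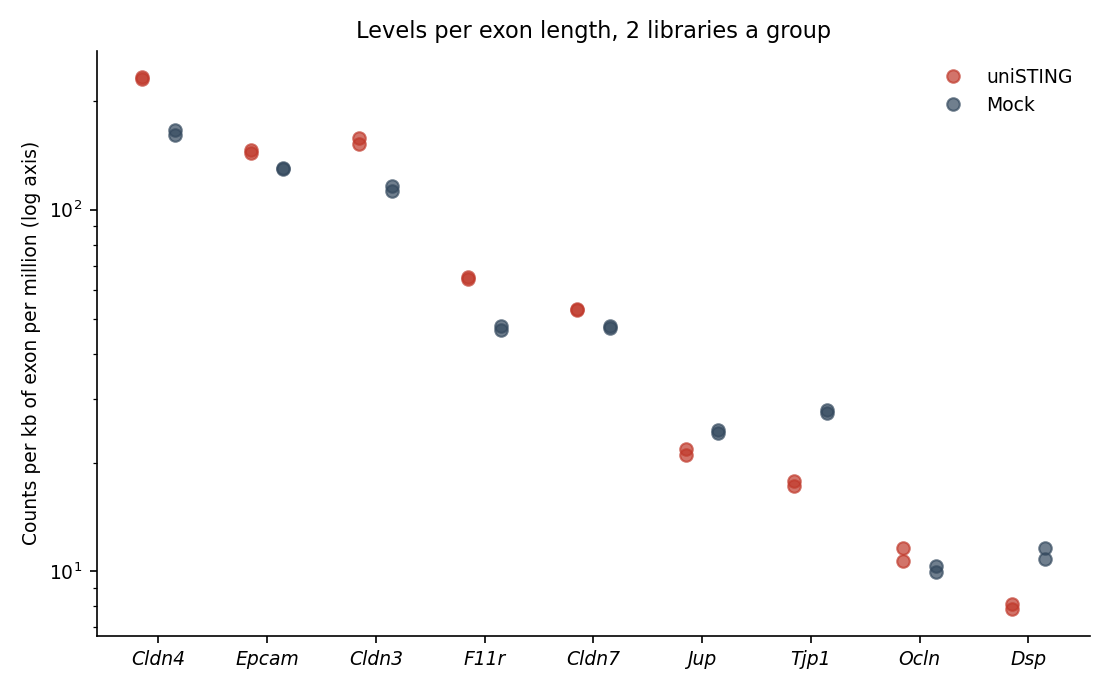
CPM per kilobase of exon (log axis) of the 9 junction genes in the 2 uniSTING and 2 Mock libraries, ordered by their mean. Cldn4, Epcam and Cldn3 lie above 100 in every library, and Ocln and Dsp lie lowest.

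The other genes of these structures were read from the same fit. Of 12 tested further transmembrane genes of tight junctions, 2 rose and 4 fell (all tested genes 24.9% and 25.4%), and their log2 fold changes had a median of 0.01 (all tested genes 0.01). The 6 calls were the same with the length trend removed. Crb3, a polarity determinant of the apical membrane, had 7.97 ± 0.0955 CPM in uniSTING and 5.31 ± 0.0275 CPM in Mock (adjusted p = 0.00258). Marveld3, a tricellulin relative, also rose, a call lost with DESeq2 and without uniSTING replicate 1 or Mock replicate 2 (adjusted p = 0.0814, 0.0939 and 0.0897). Cldn9 fell to 0.888 ± 0.404 CPM in uniSTING, against 2.46 ± 0.214 CPM in Mock, and the virus receptor gene Cxadr was 1.19-fold lower. Marveld1 and Lsr, which encodes a protein of tricellular junctions, were the other two that fell, and the call of Lsr was lost with no filter, with DESeq2 and without uniSTING replicate 2 or Mock replicate 2 (adjusted p = 0.0541, 0.130, 0.166 and 0.217). Cldn12, the most abundant of the further claudins, was at 118 CPM over all libraries with a log2 fold change of -0.01 (adjusted p = 0.802).

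Of 28 tested further plaque and polarity genes, 17 fell and 2 rose, with a median of -0.25, against the 25.4% of all genes that were lower. These genes are long (median 7.15 kb). With the length trend removed 14 were lower, 2 higher and the median was -0.17, where 22.2% of all genes were lower and 23.4% higher. Among them, the angiomotin-like scaffold genes Amotl2 and Amotl1 had log2 fold changes of -0.75 and -0.55, and Cgnl1, which encodes paracingulin, one of -0.67 (edgeR adjusted p = 1.21e-08, 1.77e-08 and 1.06e-08). Arhgef2, a guanine nucleotide exchange factor held at junctions, fell by 0.46 on the log2 scale. Tjp3, a paralogue of Tjp1, had 4.04 ± 0.360 CPM in uniSTING and 2.22 ± 0.638 CPM in Mock and rose 1.85-fold (adjusted p = 0.00847). Pard6a was the other gene that rose. Both calls were lost without Mock replicate 2 (adjusted p = 0.0791 for Tjp3 and 0.135 for Pard6a), which left no gene of the list higher. That of Pard6a was also lost without uniSTING replicate 2 (0.0684), with DESeq2 (0.0686) and with the length trend removed (0.176), when Dlg1, the gene of a polarity scaffold, was the second higher gene in its place (0.24, adjusted p = 3.58e-04).

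Adherens junction genes fell in 11 of 16 cases and rose in 1 (Nectin4), with a median of -0.26, where 25.4% of all tested genes were lower and 24.9% higher. With the length trend removed 10 were lower and 1 higher (Nectin3 in place of Nectin4), with a median of -0.19, where 22.2% of all were lower and 23.4% higher. Cdh1, which encodes E-cadherin, had 545 ± 0.304 CPM in uniSTING and 627 ± 5.63 CPM in Mock (log2 fold change -0.20, adjusted p = 2.79e-06). Ctnnb1, the gene of beta-catenin, fell to 621 ± 6.93 CPM in uniSTING, against 741 ± 5.06 CPM in Mock. Afdn, which encodes the nectin-binding scaffold afadin, was 1.42-fold lower, and the actin-linked proteins' genes Vcl and Zyx were 1.32-fold and 1.35-fold lower. All 5 stayed lower and past the test with the length trend removed. The call of Nectin4 was lost with DESeq2, limma-voom, the length trend removed, and when any 1 library was left out.

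Desmosome genes beyond Dsp and Jup were split, with 3 of 10 higher, 3 lower and a median of 0.06 (all tested genes 24.9% higher and 25.4% lower). After removal of the length trend 4 were higher and 2 lower, where 23.4% of all genes were higher and 22.2% lower. Perp, a membrane protein gene of desmosomes, had 240 ± 7.77 CPM in uniSTING and 204 ± 2.31 CPM in Mock, and the desmocollin gene Dsc2 rose 1.43-fold (adjusted p = 0.00708), a call lost without Mock replicate 2 (adjusted p = 0.0660). Dsg3, chosen once its values were known, had 10 and 19 counts in uniSTING and 0 and 3 in Mock, and its call was lost without Mock replicate 1 (adjusted p = 0.0801). The plaque genes Ppl (periplakin) and Pkp4 were 1.38-fold and 1.26-fold lower, and Dsg2 1.17-fold lower, the last a call lost with the length trend removed (-0.09, adjusted p = 0.234). The plakophilin genes Pkp1, Pkp2 and Pkp3 did not pass, with log2 fold changes of 0.04, 0.08 and 0.10. Pkp2 passed with the length trend removed (0.13, adjusted p = 0.0162), and Pkp3 did so in 5 alternatives, among them the fit without uniSTING replicate 1 (0.16, adjusted p = 0.00253).

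Partners and proteases of Epcam were mixed too, with 5 of 12 tested genes higher and 3 lower (all tested genes 24.9% and 25.4%). After removal of the length trend 6 were higher and 4 lower (all tested genes 23.4% and 22.2%). The tetraspanin gene Cd9 rose 1.19-fold, Cd44 1.15-fold and the matriptase inhibitor gene Spint2 1.11-fold. Its relative Spint1 rose as well (0.11, adjusted p = 0.0245), a call lost with the length trend removed (0.03, adjusted p = 0.510), with DESeq2 (adjusted p = 0.169) and without uniSTING replicate 2, Mock replicate 1 or Mock replicate 2 (adjusted p = 0.232, 0.165 and 0.0852). The protease gene Adam10 fell by 0.17 and the gamma-secretase gene Ncstn by 0.16 on the log2 scale. St14, the gene of matriptase, which cleaves EpCAM, did not pass (log2 fold change -0.04, adjusted p = 0.242). It was higher and past the test with the length trend removed (0.08, adjusted p = 0.0375), and lower and past it without uniSTING replicate 2 (-0.08, adjusted p = 0.0357).

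Of 13 tested regulators of epithelial genes, 2 rose and 4 fell (all tested genes 24.9% and 25.4%). With the length trend removed 1 was higher (Ovol1) and 2 were lower (Klf5 and Esrp1), where 23.4% and 22.2% of all genes were. Grhl2, a transcription factor that acts on Cldn4 and Cdh1, had 52.1 ± 2.02 CPM in uniSTING and 62.3 ± 2.79 CPM in Mock (adjusted p = 0.00202), a call lost with the length trend removed (adjusted p = 0.0996). Klf5 and the splicing factor genes Esrp1 and Esrp2 were 1.23-fold, 1.14-fold and 1.14-fold lower. The call of Esrp2 was lost with the length trend removed (adjusted p = 0.0536), with no filter, with DESeq2 and when any 1 library was left out (0.0506 to 0.188). Ovol1, a repressor of mesenchymal genes, rose 1.73-fold to 6.64 ± 0.0355 CPM in uniSTING, against 3.83 ± 0.0403 CPM in Mock, and Grhl3 also rose from low counts, to 79 and 77 in uniSTING, against 46 and 32 in Mock. The call of Grhl3 was lost with the length trend removed (adjusted p = 0.0511), with DESeq2 (0.0601) and without uniSTING replicate 1 (0.0890) or Mock replicate 2 (0.224).

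**Figure D5:**
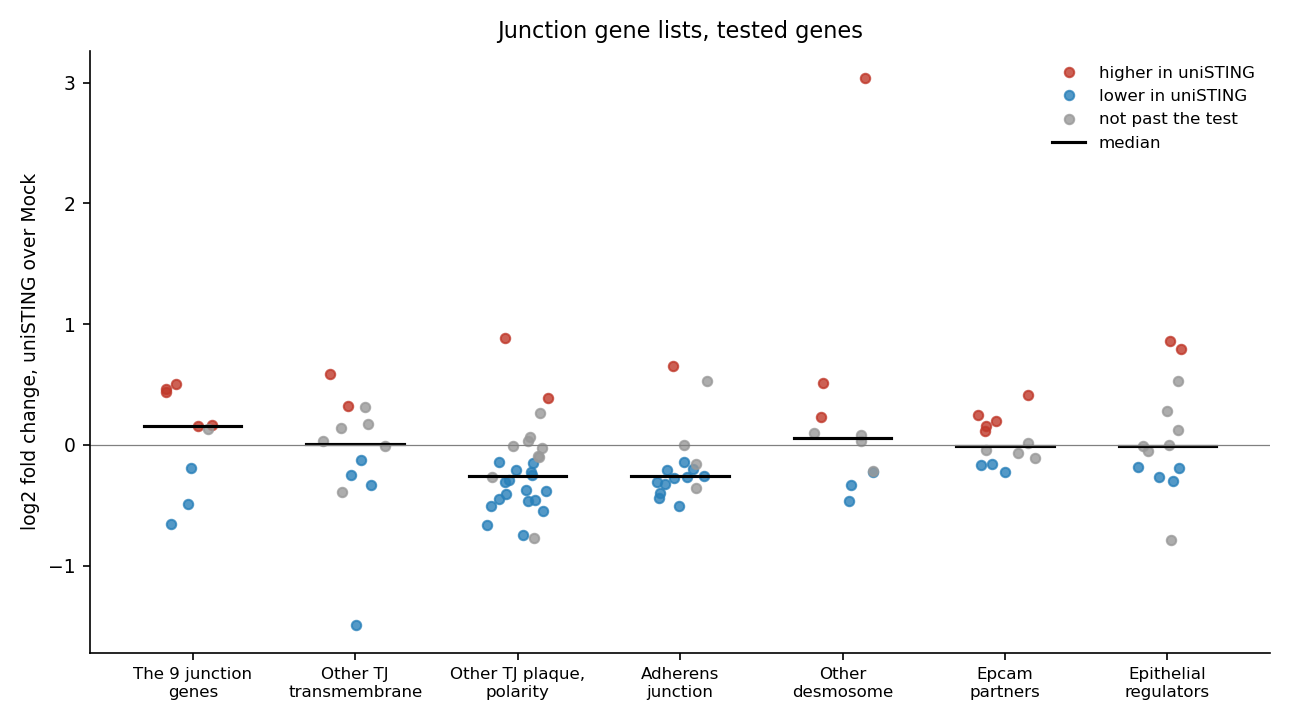
Log2 fold change of uniSTING over Mock for each tested gene of the junction lists, coloured by call, with the median of each list as a line (TJ, tight junction). Plaque, polarity and adherens junction genes lie mostly below 0, with medians of -0.25 and -0.26, and the highest point, Dsg3, rests on 0 and 3 counts in Mock.

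By profile over the 4 libraries (Euclidean distance of centred log2 CPM among 8548 genes of at least 10 CPM), the genes most like Cldn4 were Dynlt3, Il24 and Rgs10, with log2 fold changes of 0.50, 0.50 and 0.52. Those most like Tjp1 were Ccdc88c, Dnmt1 and Ubqln2, at -0.65, -0.67 and -0.65. With 2 groups of 2 libraries, likeness means little more than a similar fold change. Dnmt1 had 257 ± 5.99 CPM in uniSTING and 408 ± 3.29 CPM in Mock, against 137 ± 3.20 CPM and 216 ± 2.47 CPM for Tjp1.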

How the data were processed

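RNA of 4 libraries of 4T1 cells was measured, and the deposited tables held unnormalized counts for each gene. Per the file headers, the authors summed uniquely mapped read pairs over the exons of each gene with featureCounts 2.0.1, using no strand setting and Ensembl release 103 for GRCm39. HISAT2 is named as aligner in the submitters' processing notes. Unique mapping removes reads of near-identical copies.

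Groups and replicate numbers came from sample titles. Gene symbols came from an identifier table that matched 52093 of 53647 genes, and Pals1 was read under its older symbol Mpp5. The test was that of edgeR 4.0.16 under R 4.3.3 (TMM, default filter with a minimum count of 10 and total of 15, glmQLFit and glmQLFTest on the group, Benjamini-Hochberg adjustment over 12972 genes, threshold 0.05). Standard errors were derived from the F statistic and are approximate, and 95% intervals use its degrees of freedom. CPM are counts over TMM-scaled library size, divided by exon length in kb where genes are compared. Trends of each library with exon length, and with GC content of reference transcripts, were removed by lowess (span 0.3, entered as offsets). The tests were run on simulated counts, whose dispersions were changed after a first run from gene-wise values to those of the fitted trend. False calls were fewer after the change and were made in both.

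The further genes named are those of each list past the threshold with the smallest p, at most 4 a list and of at least 1 CPM, and those that complete a count of 5 or fewer or are set beside a member. The 9 genes, the lists and the alternatives were chosen with earlier results of these data known. The alternatives were DESeq2 size factors, no filter, a filter at 1 CPM in 2 or more libraries, the tool DESeq2 1.42.0, limma-voom (limma 3.58.1), the replicate number as a block, both trend removals and leaving out each library. Leaving out replicate 1 of both groups was chosen after seeing the data. Some genes of the lists are counted in them but not reported by name here.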

Additional observations from a re-analysis of the deposited data

How the results depend on the processing

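Of the 9 junction genes, 8 were past the test and no direction reversed in any alternative run. With the length trend removed, the count of higher genes was 3 (Epcam at 0.02 and Cldn7 at 0.01 were lost), and with length and GC trends removed Cldn7 (0.08) and Jup (-0.04) were lost. Without uniSTING replicate 2, Ocln passed (0.19). DESeq2 size factors, both other filters, DESeq2 and limma-voom changed no call of the 9. Leaving out 1 library at a time changed no call of the 9 but that of Ocln, and over all genes gave 5305 to 6098 changed genes, against 6515. With the replicate number as a block, 6777 genes changed and no call of the 9 did (Ocln adjusted p = 0.0569). Across 7970 genes, the difference of replicate 1 from replicate 2 in uniSTING correlated with that in Mock (r = 0.54), but the labels do not say that a number marks a shared batch. Between the replicate 2 libraries alone, a comparison without a test, the log2 differences ran from -0.62 (Tjp1) to 0.49 (F11r). Among the other genes named, St14 was 0.079 with the length trend removed and 0.15 with length and GC trends removed, and Krt8 was -0.10 and -0.035. Nectin3 was -0.0015 with DESeq2. Leaving out 1 library gave ranges across 0 for Nectin3 (-0.064 to 0.065), Cldn12 (-0.040 to 0.015), Dlg1 (-0.0094 to 0.060), Pkp1 (-0.10 to 0.19) and Lyz2, which has no count in either replicate 2 library (-9.52 to 10.36). With 2 libraries a group, differences of the size seen for Ocln were not resolved.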
